A study of Mus musculus with 12 samples.

Results

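The 10 genes described here encode the MYST family of lysine acetyltransferases and the subunits that build the KAT6 complexes. They were taken by name from the series' count table and are Kat6a, Kat6b, Kat7, Kat5 and Kat8 for the enzymes, Brpf1, Brpf3 and Brd1 for the scaffolds, and Ing5 and Meaf6 for the small subunits. All 10 were among the 26305 genes with an identifier and also among the 13499 genes that passed the filter on low counts. RNA was sequenced from mouse embryonic fibroblasts, primary cells isolated from E13.5 embryos that were wild type, male and of the C57BL/6 strain, and cultured in low oxygen. Cultures received WM-2474 at 10 µM for 240 h or 96 h, or the solvent DMSO for 240 h or 96 h, with 3 biological replicates in each of the 4 groups. The labels call WM-2474 an inactive control compound. No library analysed here came from cells given an active inhibitor or lacking a MYST gene, so there is no group here in which one of these enzymes was removed or blocked by design. The labels do not say whether the replicates of a group came from separate embryos, and a p-value measures only the spread between these samples.

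MYST enzymes transfer an acetyl group from acetyl coenzyme A to lysines, chiefly on histone tails, and they work inside complexes that place them on chromatin. KAT6A and its paralog KAT6B join a scaffold of the BRPF family (BRPF1, BRPF3, or BRD1, also called BRPF2), the histone reader ING5 and the small subunit MEAF6, and KAT7 can use the same partners or the JADE scaffolds. KAT5 is the enzyme of the TIP60 (NuA4) complex and KAT8 that of the MSL and NSL complexes. In mouse embryonic fibroblasts KAT6A is known for holding back senescence, the lasting arrest that these cells reach in culture, through the Cdkn2a locus.

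The 5 enzymes share the fold that binds acetyl coenzyme A, and the coding bases around its arginine- and glycine-rich loop are compared here. Each line gives 60 coding bases of one enzyme from the GENCODE M21 transcripts, on the coding strand, with the 18 bases of the loop in capitals. The stretch runs over introns in the genome. On GRCm38 its outer coordinates are chr8:22926416-22929220 (plus strand) for Kat6a, chr14:21637586-21660747 (plus) for Kat6b, chr11:95277611-95280445 (minus) for Kat7, chr19:5603985-5605426 (minus) for Kat5 and chr7:127924643-127924800 (plus) for Kat8.
Kat6a: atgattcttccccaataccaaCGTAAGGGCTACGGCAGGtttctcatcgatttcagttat
Kat6b: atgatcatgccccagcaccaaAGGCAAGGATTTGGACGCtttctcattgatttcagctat
Kat7: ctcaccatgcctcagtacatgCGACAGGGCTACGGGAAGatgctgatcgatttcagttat
Kat5: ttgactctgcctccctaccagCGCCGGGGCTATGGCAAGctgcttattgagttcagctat
Kat8: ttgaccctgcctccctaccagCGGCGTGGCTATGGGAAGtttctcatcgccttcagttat
Kat5 and Kat8 were the closest pair here, with 49 of 60 bases (81.7%) the same. Kat6a and Kat6b, the paralogs that join the same partners, had 43 of 60 bases (71.7%) in common and 8 of the 18 loop bases. Kat6a and Kat8 had as many of the 60 in common, and 11 of the loop bases. These counts are of bases, so changes that leave the amino acid the same also count as differences. Kat6b stood farthest from Kat7 and from Kat5, with 37 of 60 (61.7%) each. Over the whole annotated transcripts Kat6a and Kat6b shared 7 words of 31 bases, of 9175 such words in Kat6a, so reads of the paralogs can be told apart over almost all of their length.

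The libraries held 7313007 to 26019167 counts assigned to genes. All 9 fibroblast markers were present in every library, and their sum was 47600 to 52200 CPM (counts scaled to library size with TMM factors) at 240 h and 31000 to 36900 CPM at 96 h. Within that list Col1a1 and Fn1 were higher at 240 h, and Pdgfra was lower, with 186 to 216 CPM at 240 h and 279 to 301 CPM at 96 h. DMSO 240 h replicates 1 and 2 stood apart, with Xist, a transcript of female cells, at 5.24 and 4.48 CPM against at most 0.925 CPM in the other 10 libraries, although the labels give male cells. The same pair had the highest sums of 15 B-lineage markers, 50.7 and 44.8 CPM against 26.4 to 38.5 CPM elsewhere, and most of that sum was Ebf1, which fibroblasts also express (24.1 to 37.1 CPM), while Ms4a1 was at 0 in all libraries. Values without these 2 libraries are given for some of the changes over time with DMSO and some of the comparisons at 240 h. Such fits leave 1 DMSO library at 240 h. All other values for DMSO at 240 h include the pair. In bulk RNA, fewer cells of a type and less RNA per cell cannot be told apart.

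All 10 genes were expressed at middle levels. Counts per library lay between 81 for Meaf6, where counting alone gives an error of 11.1%, and 2473 for Brd1, where it gives 2.01%. Levels between genes are compared as RPKM, reads per kilobase of the exon length in the deposited table scaled by library size. On that scale the scaffold gene Brd1 averaged 19.2 ± 0.72 RPKM (SD over 12 libraries) and lay above Kat7, at 14.6 ± 0.88, in 12 of 12 libraries without overlap of their ranges. Meaf6 (13.7 ± 1.18), Kat5 (12.3 ± 1.48), Brpf1 (11.6 ± 0.66), Brpf3 (10.6 ± 0.65) and Kat8 (10.0 ± 1.06) followed, each overlapping its neighbour in range. The lowest 3 were Kat6a (8.12 ± 0.53), Kat6b (6.30 ± 0.51) and Ing5 (5.23 ± 0.52), under the median of 9.35 RPKM over all tested genes. Ranges of these neighbours also overlapped, although Kat6a lay above Kat6b, and Kat6b above Ing5, in 12 of 12 libraries.

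**Figure D1:**
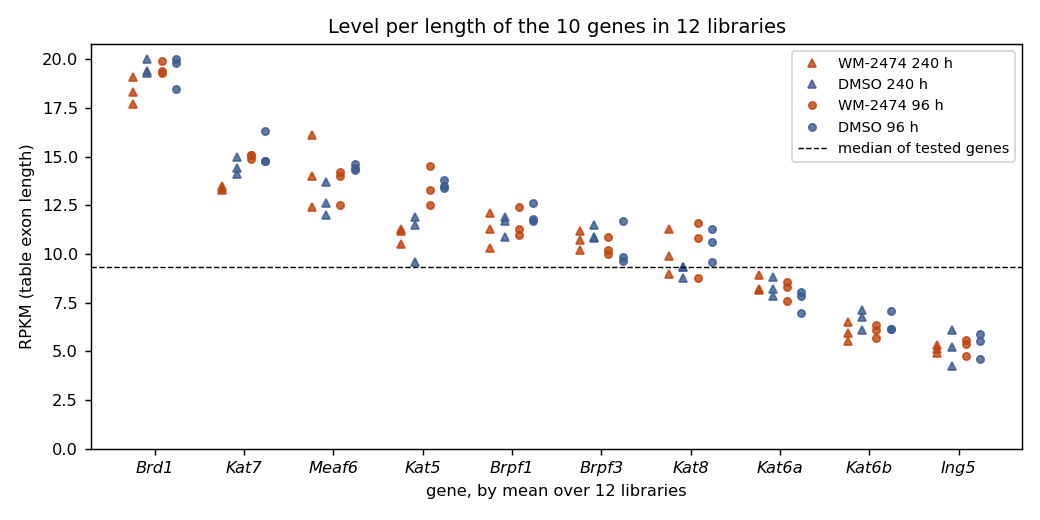
RPKM of each of the 10 genes (vertical axis, from the exon length in the deposited table), ordered by their mean over 12 libraries (horizontal axis). Triangles are 240 h and circles 96 h libraries, red with WM-2474 and blue with DMSO, and the dashed line is the median of the tested genes. Brd1 lies above the other 9 genes in every library, and Kat6a, Kat6b and Ing5 lie under the line throughout.

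Some pairs were compared within each library. Kat6a was 1.1 to 1.5 times as high as Kat6b per length, with a median of 1.31. Brd1 was 1.46 to 1.79 times as high as Brpf1 and 1.58 to 2.07 times as high as Brpf3, and Kat7 was 1.5 to 2.12 times as high as Kat6a. Each of these 4 ratios exceeded 1 in 12 of 12 libraries. The order depends on the length that is used. With exon lengths from GENCODE M21, an alternative chosen after the data had been seen, Meaf6 had 2.31 RPKM and came last, because its annotated exons cover 5211 bases there and 876 in the deposited table. Kat7 (15.7 RPKM) then came before Brd1 (11.8 RPKM), and Kat6a had 8.07 against 2.75 RPKM for Kat6b.

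The comparison of WM-2474 with DMSO asks what the control compound itself did to these transcripts. None of the 10 genes passed an adjusted p of 0.05 at 240 h or at 96 h, in either direction (edgeR's quasi-likelihood test with Benjamini-Hochberg adjustment over all tested genes, n = 3 per group). In the background of all tested genes 0.0296% were called higher and 0% lower at 240 h, and 0% in each direction at 96 h. The difference between the WM-2474 effects at 240 h and at 96 h was called for 0% of genes as well, and for none of the 10. Under the unadjusted level of 0.05 fell 1 of the 10 at 240 h (Kat7) and 0 at 96 h, against 1099 and 283 of all tested genes. This fit did not pair libraries by replicate number. A fit of only the 96 h libraries that did so put 846 of 13377 genes under that level and called none of the 10. Limma-voom also called 0 of the 10, and so did DESeq2. At 240 h, however, DESeq2 gave an adjusted p to 3292 of 13499 genes, and a gene without one could not be called. The 95% intervals of the 10 genes together covered folds of 0.81 to 1.33 at 240 h and 0.806 to 1.17 at 96 h. Single genes had narrower intervals, at 240 h for example 0.873 to 1.01 for Brd1 and 0.946 to 1.33 for Meaf6. For each gene, differences within its own interval were not resolved. The median absolute log2 fold change of the 10 genes was 0.07 at 240 h and 0.03 at 96 h, beside 0.08 and 0.05 over all tested genes.

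**Figure D2:**
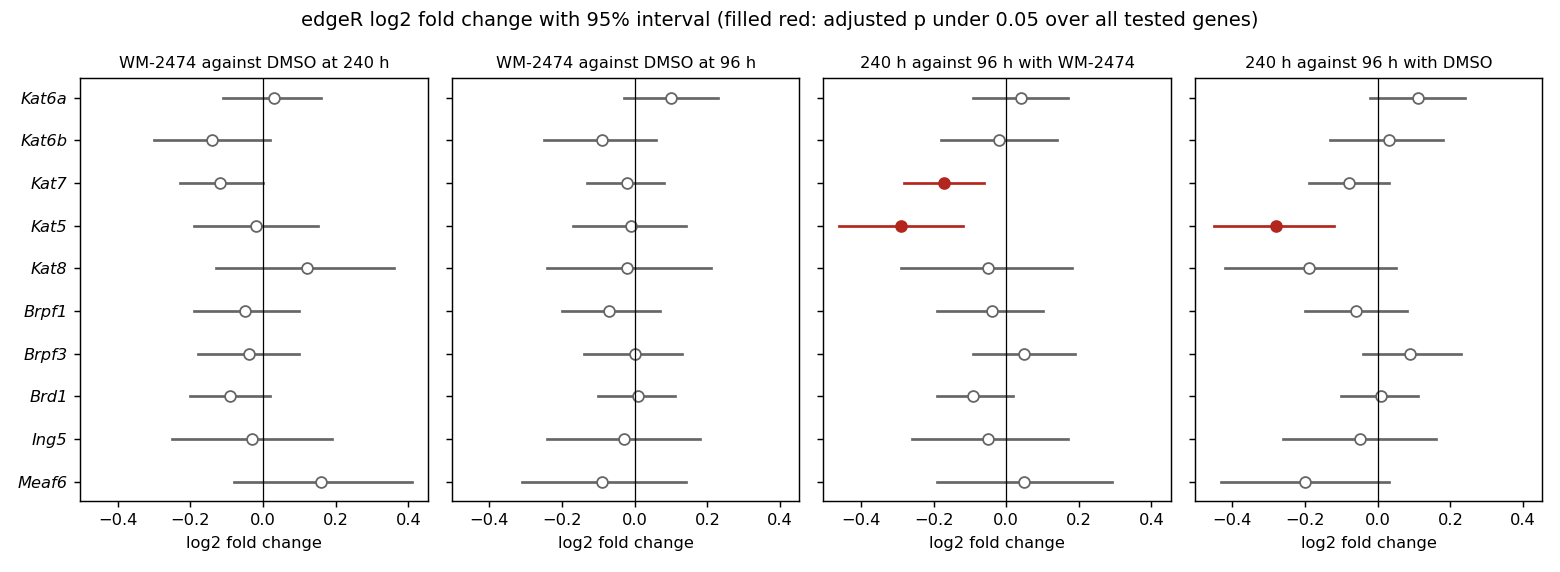
Log2 fold change (horizontal axis) with its 95% interval for each gene (vertical axis) in 4 comparisons, from left to right those of WM-2474 with DMSO (240 h, then 96 h) and those of 240 h with 96 h (WM-2474, then DMSO). Filled red points passed an adjusted p of 0.05; these are Kat5 in both time comparisons and Kat7 with WM-2474, all to the left of 0.

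Libraries of the groups did not overlap for 2 of the 10 genes at 240 h, Kat7 and Brd1, both lower with WM-2474, where 6.72% of all tested genes were lower and 7.58% higher without overlap. Without DMSO 240 h replicates 1 and 2, which leaves 1 DMSO library at 240 h, the log2 fold change of Brd1 at 240 h was -0.07. At 96 h this separation held for Meaf6 alone, lower with WM-2474, beside 3.83% of tested genes lower and 3.62% higher. With so few members such counts are not set apart from the background.

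Culture time gave the calls. Kat5 was lower at 240 h than at 96 h both with WM-2474 and with DMSO, and Kat7 was lower at 240 h with WM-2474. In counts, 2 of 10 genes fell with WM-2474, where 14.8% of all tested genes fell and 15.9% rose, and 1 of 10 fell with DMSO, where 17.3% fell and 17.5% rose. None of the 10 rose in either comparison in the edgeR fit of all libraries. Among the 22 alternatives 1, also in edgeR, called a rise (Brpf3 with DMSO). Without overlap of libraries, 3 of 10 were lower with WM-2474 (21.2% of all tested genes lower, 21.1% higher) and 3 of 10 with DMSO (22.8% lower, 22.9% higher). The members' median absolute log2 change over time was 0.05 with WM-2474 and 0.08 with DMSO, beside 0.16 and 0.17 over all tested genes. Scaling by library totals in place of TMM moved the median of all genes by -0.14 with WM-2474 and -0.13 with DMSO and turned the calls over all genes to 1097 higher and 4391 lower with WM-2474, against 2147 and 1999 with TMM, and to 1190 and 4381 with DMSO, against 2364 and 2330. Directions over time below are relative to the TMM scale. Markers of other cells also moved with time: the 5 skeletal muscle markers summed to 222 to 302 CPM at 240 h and 115 to 141 CPM at 96 h, nearly all of it Acta1, with Ckm at 0 in every library and Myod1 at 0 in every 240 h library. The 6 epithelial markers summed to 13.5 to 15.9 CPM at 240 h and 22.8 to 27.2 CPM at 96 h, nearly all of it Krt19, with Epcam at most 0.201 CPM. Their part in the changes over time was not tested.

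**Figure D3:**
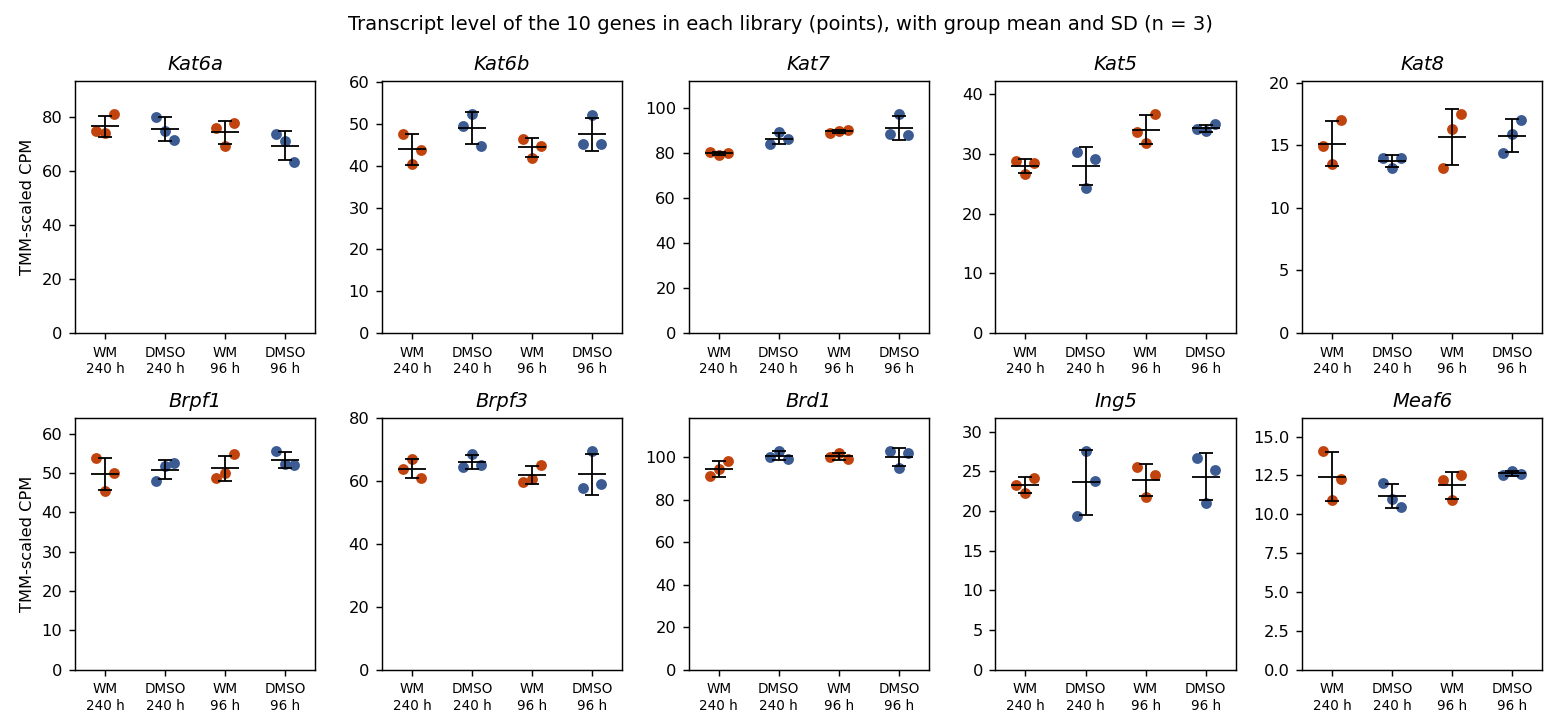
TMM-scaled CPM (vertical axis, from 0) of each gene in each library (points), with the mean and SD of 3 libraries, for WM-2474 (red) and DMSO (blue) at 240 h and 96 h. The 240 h libraries of Kat5 lie between 24.3 and 30.3 CPM, under all 96 h libraries (31.8 to 36.7 CPM). The 240 h libraries of Kat7 with WM-2474 (79.3 to 80.3 CPM) lie under those at 96 h (89 to 90.2 CPM).

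Kat5 encodes TIP60, an acetyltransferase of histones and of proteins of the DNA damage response. Its transcript had 28.8, 26.6 and 28.4 CPM with WM-2474 at 240 h, against 33.7, 31.8 and 36.7 CPM with WM-2474 at 96 h. The DMSO cultures had 30.3, 24.3 and 29.2 CPM at 240 h, against 34.1, 33.9 and 35.0 CPM at 96 h. Each 240 h library was below each 96 h library, in both treatments. Kat5 fell by 0.29 ± 0.08 (SE) on the log2 scale with WM-2474 (95% interval -0.46 to -0.12, edgeR adjusted p = 0.00703), a change of -18.2%. With DMSO it fell by 0.28 ± 0.08 (interval -0.45 to -0.12, edgeR adjusted p = 0.00642), a change of -17.9%. WM-2474 and DMSO cultures overlapped, with log2 fold changes of -0.02 ± 0.08 at 240 h (edgeR adjusted p = 0.974) and -0.01 ± 0.08 at 96 h (adjusted p = 1).

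Some limits bear on the fall of Kat5. Without DMSO 240 h replicates 1 and 2, the pair with Xist, the DMSO change was -0.23 (edgeR adjusted p = 0.0961), and without WM-2474 240 h replicate 2 the WM-2474 change was -0.25 (adjusted p = 0.0511). Exons of Kat5 overlap those of Rnaseh2c, which encodes a subunit of ribonuclease H2 and lies on the opposite strand, over 426 bases, and 10.6% of the 31-base words of Kat5 transcripts occur in Rnaseh2c. The strand setting of the counting is not given in the sources used here. Rnaseh2c itself had 18.7 ± 2.42 CPM with WM-2474 at 240 h against 17.2 ± 1.86 at 96 h (log2 change 0.15 ± 0.12, edgeR adjusted p = 0.367), and 14.5 ± 2.34 CPM with DMSO at 240 h against 18.3 ± 1.65 at 96 h (-0.34 ± 0.12, adjusted p = 0.0244; SD, n = 3 each).

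Kat7 encodes HBO1, which acetylates histones H3 and H4 and takes part in licensing origins of DNA replication. It had 80.3, 79.3 and 79.8 CPM with WM-2474 at 240 h, against 89.0, 89.8 and 90.2 CPM with WM-2474 at 96 h. The values with DMSO were 84.0, 89.2 and 86.1 CPM at 240 h, against 88.5, 97.4 and 88.0 CPM at 96 h. With WM-2474 each 240 h library was below each 96 h library, whereas with DMSO the libraries of the times overlapped. The means were 79.8 ± 0.50 CPM at 240 h and 89.7 ± 0.61 CPM at 96 h with WM-2474, and 86.4 ± 2.66 CPM at 240 h and 91.3 ± 5.25 CPM at 96 h with DMSO (SD, n = 3 each). The SDs with WM-2474 were below the counting error of a single library, which was 2.16 to 4.11% for Kat7, so they understate the error, and the test rests on the pooled spread.

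Over time Kat7 fell by 0.17 ± 0.05 on the log2 scale with WM-2474, a change of -11.1% (interval -0.28 to -0.06, edgeR adjusted p = 0.0169), and did so past the threshold in 21 of 22 alternatives. The exception left out WM-2474 240 h replicate 2 (-0.16, adjusted p = 0.0564). With DMSO the change was -0.08 ± 0.05 (interval -0.19 to 0.03, edgeR adjusted p = 0.272), and -0.20 with library totals (adjusted p = 0.00309). These changes were not shown to differ: the test of their difference, the same as that between the WM-2474 effects, gave -0.09 ± 0.07 (edgeR adjusted p = 0.977). All 3 WM-2474 libraries at 240 h lay below all 3 DMSO libraries, a log2 fold change of -0.12 ± 0.05 (interval -0.23 to 0.00), with an unadjusted p of 0.0428 and an adjusted p of 0.601 in edgeR. Without DMSO 240 h replicates 1 and 2, which leaves 1 DMSO library at 240 h, it was -0.11. At 96 h the compound's log2 fold change was -0.02 ± 0.05 (adjusted p = 1).

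Because Kat5 and Kat7 are the members that moved with time, the 250 bases before an annotated start of each are shown, from RefSeq on GRCm38.p6 and on the coding strand. The Kat5 window is chr19:5610095-5610344 (minus strand) and lies inside the gene's annotated span, so it precedes the start of a shorter transcript. The Kat7 window is chr11:95310247-95310496 (minus strand), just before the gene's outermost start. Capitals mark matches to the motifs CCAAT and CACGTG on either strand.
Kat5: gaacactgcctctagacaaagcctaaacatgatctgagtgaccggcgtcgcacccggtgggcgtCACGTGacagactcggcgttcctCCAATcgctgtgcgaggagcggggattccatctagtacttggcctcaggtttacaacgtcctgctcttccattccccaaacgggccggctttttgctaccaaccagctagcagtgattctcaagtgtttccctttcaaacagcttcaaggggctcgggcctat
Kat7: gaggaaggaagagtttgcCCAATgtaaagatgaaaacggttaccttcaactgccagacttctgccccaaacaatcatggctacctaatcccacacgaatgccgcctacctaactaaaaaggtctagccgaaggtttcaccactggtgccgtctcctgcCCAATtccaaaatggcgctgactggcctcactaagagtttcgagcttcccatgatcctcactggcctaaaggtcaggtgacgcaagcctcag
Promoter windows were found for 9 of the 10 genes, 12 windows in all, and 8 motifs were searched on both strands: the TATA box as TATAAA, the CCAAT box, the GC box as GGGCGG, the E-box as CACGTG, the cyclic AMP element as TGACGTCA, the ETS site as CCGGAAG, and E2F sites written as TTTCCCGC or else as TTTGGCGC. Kat5 held CCAAT and CACGTG in this window, and its other window held GGGCGG. Kat7 held CCAAT in 2 copies and none of the other 7 motifs. Over 32851 windows of the same length CCAAT occurred in 33.8%, CACGTG in 6.02% and GGGCGG in 32.7%. The share of G and C was 50.8% in the Kat7 window and 55.2% and 71.6% in the Kat5 windows, beside a median of 52.4% over all windows. Among members that were not called it ran between 51.2% in both Kat8 windows and 79.6% in a Kat6b window. A match describes these letters and is no evidence that a factor binds.

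Kat6a encodes the enzyme MOZ. It had 74.8, 74.3 and 81.3 CPM with WM-2474 and 80.3, 75.1 and 71.7 CPM with DMSO at 240 h. At 96 h it had 75.9, 69.5 and 77.9 CPM with WM-2474 and 73.7, 71.4 and 63.6 CPM with DMSO. Groups overlapped throughout. The log2 fold change of WM-2474 against DMSO was 0.03 ± 0.07 at 240 h (interval -0.11 to 0.16, edgeR adjusted p = 0.939) and 0.10 ± 0.06 at 96 h (-0.03 to 0.23, adjusted p = 1). Between 240 h and 96 h Kat6a differed by 0.04 ± 0.06 with WM-2474 (edgeR adjusted p = 0.681) and 0.11 ± 0.06 with DMSO (adjusted p = 0.196).

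Kat6b, which encodes the paralog MORF, had 47.7, 40.4 and 43.7 CPM with WM-2474 and 49.6, 52.4 and 44.8 CPM with DMSO at 240 h. The 96 h values were 46.5, 41.8 and 44.8 CPM with WM-2474 and 45.2, 52.1 and 45.2 CPM with DMSO. The mean was lower with WM-2474 at both times and the libraries overlapped at both. WM-2474 against DMSO gave -0.14 ± 0.08 at 240 h (interval -0.30 to 0.02, edgeR adjusted p = 0.657) and -0.09 ± 0.07 at 96 h (-0.25 to 0.06, adjusted p = 1). Its changes over time were -0.02 ± 0.08 with WM-2474 (edgeR adjusted p = 0.871) and 0.03 ± 0.08 with DMSO (adjusted p = 0.813). Of the 31-base words of Kat6b transcripts 2.4% occur in other genes, mostly in the pseudogene Kat6b-ps1, so a few of its reads could be assigned to either.

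Kat8 encodes MOF, the main acetyltransferase of lysine 16 of histone H4. It was among the lowest by count, with 14.9, 13.5 and 17.0 CPM with WM-2474 and 14.0, 13.2 and 14.0 CPM with DMSO at 240 h. At 96 h the values were 13.2, 16.3 and 17.5 CPM with WM-2474 and 14.4, 15.9 and 17.0 CPM with DMSO. Only the DMSO libraries separated by time, with those at 240 h lower. On the log2 scale the change over time was -0.19 ± 0.11 with DMSO (interval -0.42 to 0.05, edgeR adjusted p = 0.212) and -0.05 ± 0.12 with WM-2474 (adjusted p = 0.769). Without DMSO 240 h replicates 1 and 2 the DMSO change was -0.16. The compound's log2 fold change was 0.12 ± 0.12 at 240 h (adjusted p = 0.822) and -0.02 ± 0.11 at 96 h (adjusted p = 1). Exons of Kat8 overlap Prss8 on the opposite strand over 122 bases, and Prss8 had means of at most 0.157 CPM in any group. Sequence shared with other genes made up 12.7% of the 31-base words of Kat8, so its level is less certain than that of Kat6a (0.24%).

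Among the scaffolds, Brpf1 encodes the bromodomain and PWWP protein that anchors KAT6A and KAT6B to chromatin. It had 53.7, 45.5 and 50.1 CPM with WM-2474 and 48.1, 51.9 and 52.6 CPM with DMSO at 240 h. At 96 h there were 48.7, 50 and 54.8 CPM with WM-2474 and 55.7, 52.4 and 52.0 CPM with DMSO. The groups overlapped in every comparison. Fold changes on the log2 scale were -0.05 ± 0.07 and -0.07 ± 0.07 for the compound at 240 h and 96 h (edgeR adjusted p = 0.888 and 1), and -0.04 ± 0.07 and -0.06 ± 0.07 over time with WM-2474 and with DMSO (adjusted p = 0.676 and 0.513). Brpf1 shares 255 exon bases with the antisense transcript Gm15492, on the opposite strand.

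Brpf3, the scaffold that pairs mainly with KAT7, had 63.9, 67.0 and 60.9 CPM with WM-2474 and 64.4, 68.6 and 65.2 CPM with DMSO at 240 h. Values at 96 h were 59.8, 60.7 and 65.1 CPM with WM-2474 and 57.7, 69.7 and 59 CPM with DMSO. No pair of groups separated. The log2 fold change of WM-2474 against DMSO was -0.04 ± 0.07 at 240 h (edgeR adjusted p = 0.903) and 0.00 ± 0.07 at 96 h (adjusted p = 1). Over time it was 0.05 ± 0.07 with WM-2474 (adjusted p = 0.606) and 0.09 ± 0.07 with DMSO (adjusted p = 0.305), and the value with DMSO turned on 1 library, being 0.18 (adjusted p = 0.045) without DMSO 96 h replicate 2.

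Brd1 encodes BRPF2, a scaffold used by KAT7 and the KAT6 enzymes. Its transcript had 90.9, 94.2 and 98.2 CPM with WM-2474 and 99.8, 103 and 99.2 CPM with DMSO at 240 h. In the 96 h cultures it had 99.8, 102 and 99.1 CPM with WM-2474 and 103, 94.9 and 102 CPM with DMSO. The WM-2474 libraries at 240 h lay below those of DMSO at 240 h and below those of WM-2474 at 96 h. Neither difference passed the test on the TMM scale. Against DMSO it was -0.09 ± 0.05 (interval -0.20 to 0.02, edgeR adjusted p = 0.672), and -0.07 without DMSO 240 h replicates 1 and 2. Over time it was -0.09 ± 0.05 (-0.19 to 0.02, adjusted p = 0.203), and -0.22 with library totals (adjusted p = 0.00108). The other pair of values was 0.01 ± 0.05 for the compound at 96 h (adjusted p = 1) and 0.01 ± 0.05 over time with DMSO (adjusted p = 0.936).

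Ing5 encodes a reader of methylated histone H3 that guides KAT6 and KAT7 complexes. It had 23.3, 22.2 and 24.2 CPM with WM-2474 and 19.4, 27.6 and 23.8 CPM with DMSO at 240 h. There were 25.5, 21.7 and 24.5 CPM with WM-2474 and 26.7, 21 and 25.2 CPM with DMSO at 96 h. All groups overlapped, and DMSO at 240 h was the most spread. The compound's log2 fold change was -0.03 ± 0.11 at 240 h and -0.03 ± 0.10 at 96 h (edgeR adjusted p = 0.963 and 1), and the change over time was -0.05 ± 0.10 both with WM-2474 and with DMSO (adjusted p = 0.777 and 0.767).

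Meaf6 encodes the small subunit that MYST complexes of KAT5, KAT6 and KAT7 have in common. It had the fewest counts, with 14.1, 10.9 and 12.3 CPM with WM-2474 and 12, 11 and 10.5 CPM with DMSO at 240 h. The corresponding 96 h values were 12.2, 10.9 and 12.5 CPM with WM-2474 and 12.5, 12.8 and 12.6 CPM with DMSO. With DMSO the 240 h libraries lay below the 96 h libraries, and at 96 h the WM-2474 libraries lay just below those of DMSO. Log2 differences were 0.16 ± 0.12 for the compound at 240 h (interval -0.08 to 0.41, edgeR adjusted p = 0.734), -0.09 ± 0.11 at 96 h (adjusted p = 1), 0.05 ± 0.11 over time with WM-2474 (adjusted p = 0.785) and -0.20 ± 0.11 over time with DMSO (-0.43 to 0.03, adjusted p = 0.175; -0.27 and 0.21 without DMSO 240 h replicates 1 and 2). The difference between the compound's effects at 240 h and 96 h was the largest among the 10 genes, 0.25 ± 0.16 (-0.08 to 0.58, adjusted p = 0.977), and not past the threshold.

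Around the 10 genes stand 62 genes in 7 lists, which hold the other subunits of MYST complexes, other acetyltransferases, deacetylases and genes linked to KAT6A. All 62 were tested. For WM-2474 against DMSO none of the 62 passed in edgeR at 240 h (smallest adjusted p = 0.495, for the tubulin deacetylase gene Hdac6 at 0.21 ± 0.07) or at 96 h (smallest adjusted p = 1), with 3 and 2 genes under the unadjusted level of 0.05. Over time 2 rose and 10 fell with WM-2474, and 6 rose and 15 fell with DMSO, where the shares over all tested genes were 15.9% and 14.8% with WM-2474 and 17.5% and 17.3% with DMSO. Scaled by library totals these counts became 2 higher and 37 lower with WM-2474, and 2 higher and 32 lower with DMSO. Over all 13499 tested genes library totals gave 1097 higher and 4391 lower with WM-2474, and 1190 and 4381 with DMSO. A fit without DMSO 240 h replicates 1 and 2 leaves 1 DMSO library at 240 h, so its calls are not set beside these counts. Under each of the 22 alternatives 8 of the 12 calls with WM-2474 held (Jade1, Jade2, Ruvbl2, Hat1, Hdac5, Ezh2, Melk and Cdkn2a), and 7 of the 21 with DMSO (Jade1, Jade2, Hdac5, Sirt6, Ezh2, Melk and Cdkn2a).

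**Figure D4:**
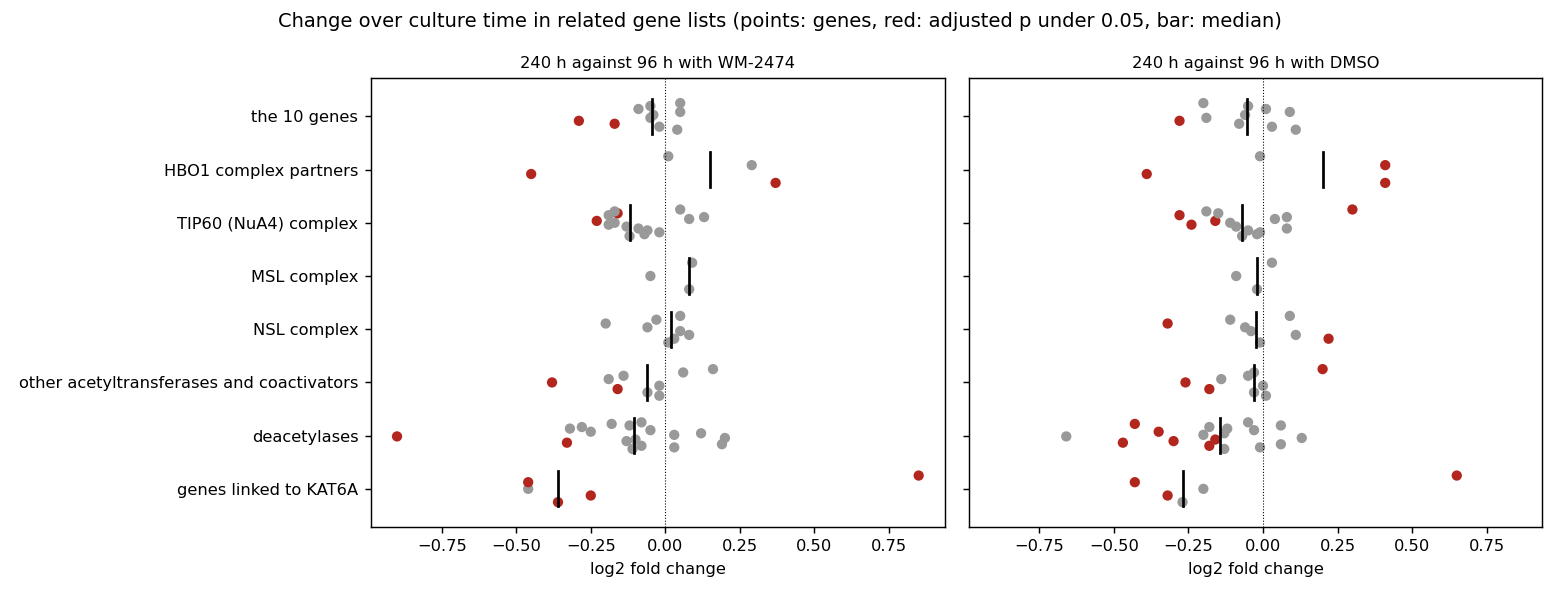
Log2 fold change of 240 h against 96 h (horizontal axis) for the 10 genes and for each related list (vertical axis), with WM-2474 on the left and DMSO on the right; red points passed an adjusted p of 0.05 and bars are medians. Apart from Cdkn2a (0.85 with WM-2474, 0.65 with DMSO) and the deacetylase gene Hdac9 (-0.90 and -0.66), the points lie within 0.5 of 0.

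Of the 4 other partners of KAT7, Jade1 rose and Jade2 fell in both treatments, Jade3 rose with DMSO, and Ing4, a reader like ING5, passed in neither (0.01 ± 0.09 with WM-2474 and -0.01 ± 0.09 with DMSO, edgeR adjusted p = 0.933 and 0.957). Jade1, a scaffold of the HBO1 complex, averaged 146 ± 13 CPM with WM-2474 at 240 h against 113 ± 6.41 at 96 h, and 157 ± 2.06 CPM with DMSO at 240 h against 118 ± 11.1 at 96 h (SD, n = 3 each). It rose by 0.37 ± 0.07 on the log2 scale with WM-2474 (edgeR adjusted p = 0.000155) and by 0.41 ± 0.07 with DMSO (adjusted p = 3.4e-05). Its paralog Jade2 averaged 20.1 ± 2.08 CPM with WM-2474 at 240 h against 27.2 ± 2.14 at 96 h, and fell by 0.45 ± 0.10 with WM-2474 (adjusted p = 0.000772) and by 0.39 ± 0.09 with DMSO (adjusted p = 0.00196). Jade3 rose by 0.41 ± 0.14 with DMSO (adjusted p = 0.0241), a call that ended with library totals (0.29, adjusted p = 0.103) and without DMSO 240 h replicates 1 and 2 (0.27, adjusted p = 0.29). Of these 4 genes 1 rose and 1 fell with WM-2474, and 2 rose and 1 fell with DMSO. The shares over all tested genes were 15.9% higher and 14.8% lower with WM-2474, and 17.5% and 17.3% with DMSO. The list medians were 0.15 and 0.20 beside 0.00 and -0.01 over all tested genes.

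Of the 15 partners of KAT5 in the TIP60 complex, 2 fell and 0 rose with WM-2474, and 3 fell and 1 rose with DMSO (medians -0.12 and -0.07). Over all tested genes 14.8% fell and 15.9% rose with WM-2474, and 17.3% fell and 17.5% rose with DMSO. Without DMSO 240 h replicates 1 and 2 the DMSO change was -0.12 for Ruvbl2 (edgeR adjusted p = 0.318), -0.24 for Mrgbp (0.23) and 0.34 for Mbtd1 (0.0484). The ATPase gene Ruvbl2 fell in both, by 0.23 ± 0.06 with WM-2474 (edgeR adjusted p = 0.00312) and by 0.16 ± 0.06 with DMSO (adjusted p = 0.0354). Actl6a, an actin-related subunit, passed narrowly with WM-2474 (-0.16 ± 0.06, adjusted p = 0.0499) and in 5 of 22 alternatives. With DMSO Mrgbp fell by 0.28 ± 0.10 (adjusted p = 0.0328), and the histone methyl-lysine reader gene Mbtd1 rose by 0.30 ± 0.09 (adjusted p = 0.0138), a call lost with library totals (0.18, adjusted p = 0.136). For KAT8, none of the 3 MSL genes passed in edgeR in either treatment (smallest adjusted p = 0.249 with WM-2474 and 0.354 with DMSO). Of 8 NSL genes none passed with WM-2474, and with DMSO Mcrs1 fell by 0.32 ± 0.10 (adjusted p = 0.0126) and Kansl2 rose by 0.22 ± 0.07 (adjusted p = 0.027; 0.09 and 0.334 with library totals). Leaving out the same pair of DMSO libraries gave -0.33 for Mcrs1 (adjusted p = 0.0795) and 0.30 for Kansl2 (adjusted p = 0.0221).

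Among 9 other acetyltransferases and coactivators, 2 fell with WM-2474, and 2 fell and 1 rose with DMSO. Hat1, which acetylates newly made histone H4, fell by 0.38 ± 0.09 with WM-2474 (edgeR adjusted p = 0.0027) and by 0.26 ± 0.09 with DMSO (adjusted p = 0.0302). Kat2a, which encodes GCN5 of the SAGA complex, fell by 0.16 ± 0.06 with WM-2474 (adjusted p = 0.0385) and by 0.18 ± 0.06 with DMSO (adjusted p = 0.0185). The circadian regulator gene Clock rose by 0.20 ± 0.07 with DMSO (adjusted p = 0.0338), and was at 0.07 with library totals (adjusted p = 0.427). None of the 3 DMSO calls passed in edgeR without DMSO 240 h replicates 1 and 2, where Hat1 was at -0.19 (adjusted p = 0.28), Kat2a at -0.16 (0.174) and Clock at 0.13 (0.37). Of 18 deacetylase genes 2 fell with WM-2474 and 6 with DMSO, and none rose in edgeR, where 14.8% and 17.3% of all tested genes fell and 15.9% and 17.5% rose. Their medians were -0.11 and -0.15.

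The class II deacetylase gene Hdac5 averaged 124 ± 13.5 CPM with WM-2474 at 240 h against 155 ± 5.70 at 96 h, and 115 ± 4.67 CPM with DMSO at 240 h against 159 ± 8.32 at 96 h (SD, n = 3 each). It fell by 0.33 ± 0.06 with WM-2474 (edgeR adjusted p = 0.000195) and by 0.47 ± 0.06 with DMSO (adjusted p = 1.6e-06). Hdac9 fell by 0.90 ± 0.29 with WM-2474 (adjusted p = 0.0196) and passed in 18 of 22 alternatives. Its level was low, with 1.09 ± 0.05 CPM with WM-2474 at 240 h against 2.04 ± 0.27 at 96 h. With DMSO it changed by -0.66 ± 0.27 (adjusted p = 0.0613). The sirtuin gene Sirt6 fell by 0.43 ± 0.10 with DMSO (adjusted p = 0.00108) and changed by -0.18 ± 0.10 with WM-2474 (adjusted p = 0.169). For neither gene were the changes shown to differ between treatments (edgeR adjusted p = 0.988 and 0.977).

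Of the 5 genes linked to KAT6A, a list known from earlier work on this enzyme, 1 rose and 3 fell with WM-2474, and 1 rose and 2 fell with DMSO. Over all tested genes 15.9% rose and 14.8% fell with WM-2474, and 17.5% rose and 17.3% fell with DMSO. The list medians were -0.36 and -0.27, and whether this small list differs from other genes was not tested. Cdkn2a, the locus of the senescence proteins p16INK4a and p19ARF, had 186 ± 12.2 CPM with WM-2474 at 240 h against 103 ± 10.3 at 96 h, and 170 ± 3.40 CPM with DMSO at 240 h against 109 ± 16.5 at 96 h (SD, n = 3 each). It rose by 0.85 ± 0.10 with WM-2474 (edgeR adjusted p = 3.84e-05) and by 0.65 ± 0.10 with DMSO (adjusted p = 0.000324), while Kat6a itself did not pass in either (adjusted p = 0.681 and 0.196). The kinase gene Melk fell by 0.46 ± 0.09 with WM-2474 (adjusted p = 0.00019) and by 0.43 ± 0.08 with DMSO (adjusted p = 0.00022). Ezh2, which encodes a Polycomb methyltransferase, fell by 0.25 ± 0.07 with WM-2474 (adjusted p = 0.00732) and by 0.32 ± 0.07 with DMSO (adjusted p = 0.00073).

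As a description over the 12 libraries, which share their times and treatments, the genes most like 3 of the enzymes in log2 CPM were sought among 9513 genes of at least 10 CPM. Kat7 was followed most closely by Gle1 (Pearson r = 0.97), Sh3rf1 (0.903) and Dglucy (0.896). For Kat6a they were Epb41l3 (0.897), Fryl (0.841) and Ppp1r12b (0.835), and for Kat6b Fam149b (0.78), Bccip (0.755) and Ppil4 (0.746). Kat6a and Kat6b, the paralogs, had r = 0.125 over all libraries and 0.395 once group means were taken off, and Kat7 and Kat5, the members that fell, had r = 0.546 over all libraries and -0.386 once group means were taken off.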

How the data were processed

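Fibroblast RNA of 12 cultures was sequenced from stranded mRNA libraries, per the labels' protocols. The authors deposited raw counts per gene with exon lengths; per the submitters' processing notes they came from featureCounts on mm10. Aligner, versions, annotation and strand setting are not given in the sources used here. Of 27179 entries, 874 without an identifier (0.547 to 0.648% of counts) were left out, and 25275 identifiers (96.1%) matched a RefSeq symbol (GRCm38.p6).

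Counts were scaled with TMM and fitted in edgeR 4.0.16 (R 4.3.3; filterByExpr by group, 1 mean per group, robust quasi-likelihood, biological variation 5.22%), with Benjamini-Hochberg adjustment over 13499 genes and a threshold of 0.05. An exact permutation of 3 against 3 libraries cannot go below p = 0.1, so calls rest on the pooled fit. Intervals cover 95%. Replicate pairs differed by more than sampling noise (chi-square per degree of freedom 2.05 to 5.25). Same-numbered libraries deviated together at 96 h (correlations 0.301, 0.235 and 0.191), so the numbers pair those samples. The main fit, with its errors and intervals, does not use this pairing. Alternatives were other scalings, filters, tools (DESeq2 1.42.0, limma-voom 3.58.1), fits of only the libraries compared, a replicate block, and libraries left out. All 10 members are named; of each list, up to 2 rising and 2 falling genes of smallest p, or the smallest p where none passes. The members and lists were chosen with earlier results of these data known.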

Additional observations from a re-analysis of the deposited data

How the results depend on the processing

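Over 22 alternatives the 920 recomputed fold changes of the 10 genes kept direction and side of the threshold in 869 cases; 3 calls were lost, 7 gained, and 41 values changed sign, none of them called in the fit of all libraries. None of the 22 called one of the 10 genes for WM-2474 against DMSO, and none of the 20 that can give the difference between times called one for it. Kat5 stayed between -0.43 and -0.24 with WM-2474 and between -0.41 and -0.21 with DMSO, called in 21 of 22 each. Where an alternative changed a result, the cause was not tested.

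Of the members lower over time with WM-2474, library totals gave 4 (Kat5, Kat7, Brpf1 and Brd1), and leaving out single libraries gave 0 to 2. With DMSO, library totals gave 5 (Kat5, Kat7, Kat8, Brpf1 and Meaf6), and leaving out single libraries gave 0 to 1 higher. Over all 13499 tested genes library totals called 4391 lower with WM-2474 and 4381 lower with DMSO, so these counts of members are not set apart from that shift. The fit without both libraries with Xist assumes that the 1 remaining DMSO library at 240 h varies like the other groups. With library totals the time change was -0.09 for Kat6a, -0.08 for Brpf3 and -0.08 for Meaf6 with WM-2474, and -0.01 for Kat6a, -0.09 for Kat6b, -0.03 for Brpf3 and -0.12 for Brd1 with DMSO. Without both libraries with Xist, Kat6b was at -0.08 and Brd1 at -0.01 over time with DMSO. Limma-voom gave -0.02 for Kat6b over time with DMSO and 0.01 for Ing5 with the compound at 96 h.

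Leaving out single libraries moved the compound's log2 fold change at 240 h from -0.11 to 0.02 for Brpf1, -0.12 to 0.06 for Ing5, -0.09 to 0.03 for Kat5 and -0.02 to 0.07 for Kat6a. At 96 h the ranges were -0.03 to 0.03 for Brd1, -0.12 to 0.05 for Ing5, -0.07 to 0.03 for Kat5, -0.05 to 0.02 for Kat7 and -0.10 to 0.11 for Kat8. Over time with WM-2474 they were -0.10 to 0.02 for Brpf1, -0.01 to 0.07 for Kat6a, -0.08 to 0.04 for Kat6b, -0.18 to 0.03 for Kat8 and -0.05 to 0.15 for Meaf6, and with DMSO -0.03 to 0.03 for Brd1, -0.13 to 0.04 for Ing5 and -0.02 to 0.11 for Kat6b.

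With the replicate number as a block, Kat5 changed by -0.28 with WM-2474 and -0.29 with DMSO (edgeR adjusted p = 0.0045 and 0.00246) and Kat7 by -0.17 with WM-2474 (adjusted p = 0.0156); the block changed no call among the members. At 96 h, where the numbers pair the samples, a blocked fit of the 6 libraries compared called 3 genes higher, none of them among the 10. It put 846 genes at an unadjusted edgeR p under 0.05, against 284 in the fit of these libraries without the block. Same-numbered libraries correlated by 0.0397 to 0.114 at 240 h, and by -0.00783 to 0.0804 with WM-2474 and 0.0557 to 0.132 with DMSO across times. Over all genes at 240 h, the 4 calls of WM-2474 against DMSO became 39 higher and 8 lower without a filter, 11 with DESeq2, which gave an adjusted p to 3292 of 13499 genes, and 79 higher and 12 lower with the blocked fit of the libraries compared. There were 0 such calls when replicate 1 or replicate 2 of either treatment at 240 h was left out, and when that DMSO pair was left out together, with 590 to 1211 genes at an unadjusted edgeR p under 0.05. Depth limits Meaf6 and Kat8 most, with counting errors of up to 11.1% and 10.2%.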
